A study of Mus musculus with 16 samples.

Results

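The expression files listed 24972 genes, of which 72 encode heat shock proteins or DnaJ (J domain) proteins. These 72 were chosen by gene symbol, with earlier results of these data known. The choice took every Hspa, Hspb, Hspd, Hspe and numbered Dnaja, Dnajb and Dnajc gene together with the Hsp90 genes and Hsph1, and left out pseudogenes. The 72 comprised 3 Hsp90 genes, 14 Hsp70 and Hsp110 genes, 8 small heat shock protein genes, the 2 genes of the mitochondrial chaperonin, and 4, 13 and 28 DnaJ genes of classes A, B and C. Across the dorsal hippocampus of mice trained in active place avoidance, the transcripts of the inducible Hsp70 gene Hspa1b and of the clathrin-uncoating J protein gene Dnajc6 were higher than in untrained mice, and those of the J protein genes Dnajb1 and Dnajb5 were lower. The most abundant cytosolic chaperones, Hsp90ab1, Hspa8 and Hsp90aa1, passed the test in no comparison of training. For the endoplasmic reticulum Hsp70 gene Hspa5 the difference with training in CA1 was unlike that in the dentate gyrus (DG). That call was lost in most fits that left out 1 animal. Nor could it be told apart from a split of the libraries by how many genes were at 0. Sex-linked transcripts also differed between trained libraries and all but 1 untrained library, and with a covariate for them no chaperone gene was called in any comparison of trained with untrained libraries, at wider errors.

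Chaperones of the Hsp70 family bind exposed stretches of unfolded protein in a cycle driven by ATP. J proteins deliver clients to Hsp70 and stimulate its ATPase, Hsp110 proteins exchange its nucleotide, and Hsp90 takes over a set of clients near their native state. In heat-stressed cells the factor HSF1 binds heat shock elements and induces Hspa1a, Hspa1b, Dnajb1, Hsph1 and others, whereas unfolded protein in the endoplasmic reticulum induces Hspa5 and Hsp90b1. In neurons the constitutive Hsp70 (Hspa8) also strips clathrin coats from vesicles with the J protein auxilin (Dnajc6), and Dnajc5, cysteine string protein, sits on synaptic vesicles.

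The data are bulk RNA-seq libraries of ArcCreERT2::eYFPflx mice aged 3 to 4 months. Each library holds the CA1, CA3 or DG tissue of 1 animal, cut out of slices of the dorsal hippocampus and combined before RNA extraction. Trained mice had learned to avoid a shock zone on a rotating arena, and untrained mice had explored the same arena with the shock switched off. All were killed 60 min after a retention test held 24 h after the last training, also without shock, so both groups had just revisited the arena. There were 9 trained libraries (3 each from CA1, CA3 and DG) and 7 untrained libraries (3 from CA1, 2 from CA3 and 2 from DG). The transgenes place a tamoxifen-inducible Cre under control of Arc and a Cre-dependent eYFP reporter in every animal, whether trained or not. In such tissue pieces fewer cells of a type and less RNA per cell cannot be told apart.

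The deposited values were estimated counts already normalized between libraries, and their sums ranged from 7607326 to 7984931 per library. The 72 chaperone genes took 0.793% to 0.914% of that sum. Other features of the libraries moved with the groups. Xist, a transcript of female cells, was between 7601 and 19592 in all 9 trained libraries and between 25.5 and 52.4 in 6 untrained ones, with 10587 in untrained CA3 replicate 1, so sex-linked transcripts and training cannot be told apart here. The study's methods list both sexes in each training group, which these levels do not match. The libraries labelled untrained replicate 1 also disagree among themselves, with Xist at 26.1 in CA1 and 25.5 in DG, and Ddx3y, a Y-linked gene, at 553 in CA1, 448 in DG and 201 in CA3, so their label as 1 animal goes against these values. Trained replicates varied too, with Ddx3y at 70.9, 12.9 and 1.83 in CA1, CA3 and DG of replicate 1 and at 101, 92.9 and 255.2 in those of replicate 3. In 7 libraries 7567 to 9759 genes were at 0, against 3124 to 5944 in the other 9, and these 7 were the whole trained CA1 group, the whole untrained DG group and 2 of the 3 trained CA3 libraries. Defining markers did not separate the subregions in all groups: the summed level of 5 granule cell markers (Prox1, C1ql2, Dsp, Plk5 and Tdo2) was 5493 to 6837 in CA1, 5136 to 8640 in CA3 and, in DG, 7324 to 7879 in untrained and 6122 to 6487 in trained libraries, with none of the 5 at 0 throughout a group, while the sum of 4 CA1 markers was 3079 to 4998 in untrained CA1, 1528 to 1943 in trained CA1 and 876 to 2010 elsewhere. The sum of 4 CA3 markers was 1237 to 1351 in untrained CA1, 1644 to 1732 in trained CA1, 1613 to 2240 in CA3 and 1679 to 1948 in DG. Untrained CA1 thus stood apart by the markers of CA1 and CA3, and trained CA1, CA3 and DG did not. The subregion names are therefore used below only as the labels give them.

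Stretches of upstream sequence that hold a stress element are shown for 6 genes described below: the near-identical pair Hspa1b and Hspa1a, the mitochondrial co-chaperonin gene Hspe1, and the 3 endoplasmic reticulum chaperone genes with the element of that compartment, called or not. They are a selection, and other genes called below also had a short heat shock element in the window searched, namely Dnajc10 (at position -182 from the start) and Hspb1 (at -117 and -97). Each stretch shown ends at the base before the RefSeq transcription start (GRCm38.p6) and is written 5′ to 3′ on the gene's own strand. In the first 3, capitals mark heat shock elements, searched on both strands as GAANNTTC or TTCNNGAA and in the longer form GAANNTTCNNGAA or TTCNNGAANNTTC. In the last 3, capitals mark the endoplasmic reticulum stress element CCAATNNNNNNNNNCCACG on either strand.
Hspa1a (chr17:34972157-34972376, minus strand): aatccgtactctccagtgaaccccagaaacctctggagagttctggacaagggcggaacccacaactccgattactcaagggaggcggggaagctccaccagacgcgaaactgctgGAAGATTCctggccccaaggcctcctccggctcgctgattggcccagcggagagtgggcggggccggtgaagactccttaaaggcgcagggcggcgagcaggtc
Hspa1b (chr17:34959239-34959458, minus strand): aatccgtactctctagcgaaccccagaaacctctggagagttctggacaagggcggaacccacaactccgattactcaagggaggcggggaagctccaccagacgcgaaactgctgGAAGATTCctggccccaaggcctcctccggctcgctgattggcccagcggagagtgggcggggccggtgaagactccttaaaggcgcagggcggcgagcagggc
Hspe1 (chr1:55087948-55088147, plus strand): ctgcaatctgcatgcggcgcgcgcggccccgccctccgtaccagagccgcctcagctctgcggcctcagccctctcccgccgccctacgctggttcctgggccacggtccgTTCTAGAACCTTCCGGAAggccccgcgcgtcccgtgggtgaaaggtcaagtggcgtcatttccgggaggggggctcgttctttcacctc
Hspa5 (chr2:34771870-34772089, plus strand): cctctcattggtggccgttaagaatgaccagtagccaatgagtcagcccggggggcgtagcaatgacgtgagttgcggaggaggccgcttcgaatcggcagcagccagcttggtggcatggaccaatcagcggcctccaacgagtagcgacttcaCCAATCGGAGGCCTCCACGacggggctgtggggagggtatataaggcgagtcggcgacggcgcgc
Hsp90b1 (chr10:86705445-86705664, minus strand): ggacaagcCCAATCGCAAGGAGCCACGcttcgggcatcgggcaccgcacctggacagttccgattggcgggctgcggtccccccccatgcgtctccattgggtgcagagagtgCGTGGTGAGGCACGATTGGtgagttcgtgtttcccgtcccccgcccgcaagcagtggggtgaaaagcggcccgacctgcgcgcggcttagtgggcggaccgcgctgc
Dnajc3 (chr14:118937712-118937931, plus strand): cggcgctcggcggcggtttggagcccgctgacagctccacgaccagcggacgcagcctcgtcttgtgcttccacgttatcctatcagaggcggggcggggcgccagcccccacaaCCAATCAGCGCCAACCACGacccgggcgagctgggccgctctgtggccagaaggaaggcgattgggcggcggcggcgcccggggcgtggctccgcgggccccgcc

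The Hspa1a and Hspa1b stretches differed at 3 of 220 bases and held the same single element. RefSeq promoters running from 250 bases before to 50 after the start were found for 58 of the 72 genes. The short heat shock element was found in 15.1% of all 32851 promoters of that length and in 18 of the 75 promoters of these 58 genes, which belong to 16 genes. Its longer form, which contains the short one, was found in 0.603% of all promoters and in 6 of the 75, which belong to 4 genes, namely Hspd1, Hspe1, Hsph1 and Dnajb6. Hspd1 and Hspe1 are read away from each other from 1 shared region, so their promoter windows had 285 bases in common and the same elements were counted for both. The endoplasmic reticulum element was found in 0.119% of all promoters and in 3 of the 75, those of Hspa5, Hsp90b1 (at 2 places) and Dnajc3. Neither form of the heat shock element was found in the windows of Dnajb1, Dnajb5 or Dnajc6. These matches describe letters only, and they were not tested against the expression values.

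Levels of the chaperone transcripts per kilobase ran from 0.40 to 16128. Taking the mean normalized count over 16 libraries per kilobase of median annotated transcript length, the abundant cytosolic chaperones led, with 16128 for Hsp90ab1, 14117 for Hspa8 and 10747 for Hsp90aa1. They were followed by Hspa12a (2892), an atypical Hsp70, the Hsp110 gene Hsph1 (2835), Hspa5 (2364), the class A J protein Dnaja1 (2014), Hsp90b1 (1817), the mitochondrial Hsp70 gene Hspa9 (1570.2) and Dnajc18 (1412). Inducible Hspa1b and Hspa1a were near the bottom of the expressed range, at 31.8 and 28 per kilobase. The scale depends on the length used: per kilobase of the longest coding transcript Hspa8 came first with 4856, then Hsp90ab1 with 4442 and Hsp90aa1 with 1962, while Hspa12a moved from rank 4 to rank 11, Dnajc18 from 10 to 22 and Dnajc6 from 21 to 5. Of the 31-base words of Hsp90aa1 transcripts, 51.4% occur in transcripts of other genes. Hsp90ab1, Hspa8 and Hsp90aa1 together held 44.1% of all chaperone counts.

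**Figure D1:**
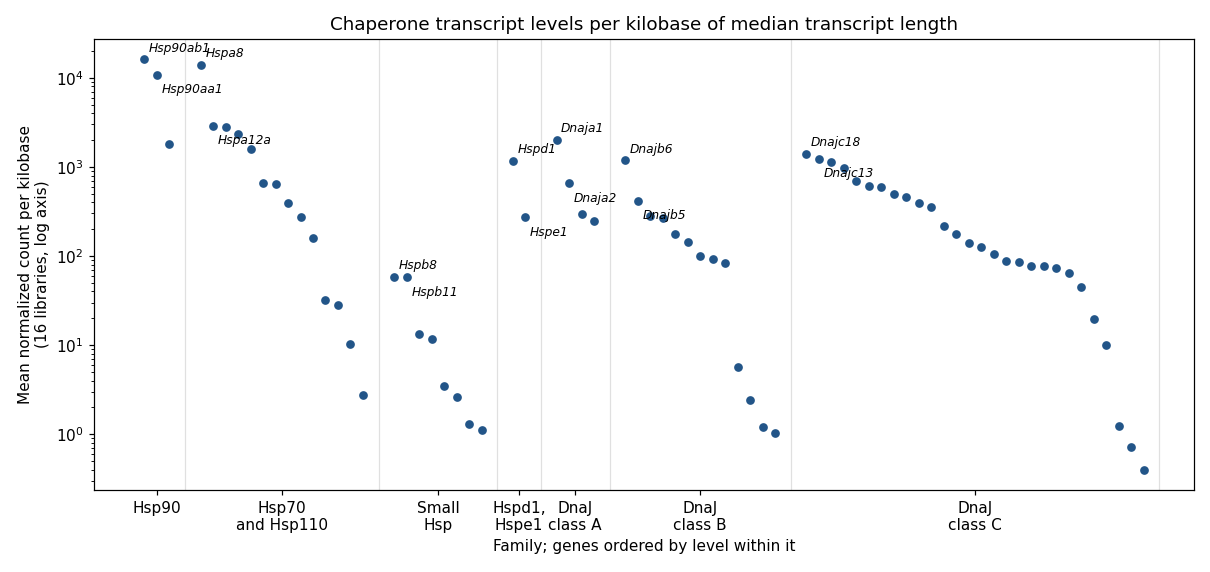
Mean normalized count per kilobase of median transcript length (vertical log axis, 16 libraries) for each of the 72 chaperone genes, grouped by family on the horizontal axis and ordered by level within each; the first 2 genes of each family are named. Hsp90ab1, Hspa8 and Hsp90aa1 lie highest, and the small heat shock protein genes reach at most 58.4.

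By family, Hsp70 and Hsp110 genes held 35.3% of the chaperone counts, Hsp90 genes 29.7%, class C J proteins 20.7%, class B 6.54%, class A 5.69%, the mitochondrial chaperonin 1.88% and small heat shock proteins 0.221%. In 12 of the 72 genes the mean was below 10, namely the small heat shock protein genes Hspb2, Hspb3, Hspb7 and Hspb9, the Hsp70 gene Hspa1l and 7 J protein genes. Of these 12, 10 failed the filter on low values in the fit of all libraries, and none of those 10 exceeded 10.9 in any library. For the 46 genes with a mean of at least 100, the coefficient of variation over the 16 libraries had a median of 8.61%. It was smallest for Dnajb4 (4.18%), a heat-inducible J protein, and Dnajc11 (4.33%), and largest for Dnajb1 (15.3%) and Dnajc21 (17%).

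Trained and untrained mice were first compared over all 3 subregions together, with subregion as a term in limma on log2(normalized count + 2), so that fold changes of low genes are understated. A gene is called here when its p-value, adjusted over all genes tested, was under 0.05. The 9 trained and 7 untrained libraries entered as separate samples, although the labels give only 3 animals per training group. Of 62 chaperone genes tested, 8 were called, beside 10.3% of all 14673 genes tested. Hspa1b, Dnajc6, Dnajc10 and Dnaja2 rose, and Dnajb5, Dnajb1, Hsp90b1 and Dnajc13 fell. The median log2 fold change was 0.0073 over the chaperone genes tested and -0.0091 over all genes tested. With a covariate made from 5 sex-linked transcripts, 0 of the 62 were called by limma (11 at an unadjusted p under 0.05), and the smallest adjusted p was 0.138. The standard errors widened in that fit, that of Hspa1b to 0.24. Its log2 fold change there was 0.54, and those of Dnajb1, Dnajb5, Dnajc6 and Dnaja2 were -0.28, -0.33, 0.40 and 0.21. Those of Dnajc10, Dnajc13 and Hsp90b1 were 0.15, -0.13 and -0.067. Without untrained CA3 replicate 1, 7 were called, and Dnaja2 was no longer among them (adjusted p = 0.128). Leaving out trained animal 2 left Dnajb5 and Hspa1b, leaving out untrained animal 1 left those and Dnajb1, and leaving out trained animal 3 left 4 of the 8 (Dnajb1, Dnajb5, Dnajc6 and Hspa1b) and added Hspa1a. With a term for the libraries with many genes at 0, 10 were called. Of 5 astrocyte markers, Aqp4 (-0.30 on the log2 scale) and Gja1 (-0.18) also fell, as did the meningeal marker Dcn (-0.72), the CA3 marker Coch (-1.14) and the immediate early genes Atf3 (-0.69) and Egr1 (-0.51), while the CA3 marker Grik4 (0.45) and the interneuron marker Slc32a1 (0.35) rose. Their part in the chaperone changes was not tested.

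Hspa1b, which encodes an inducible cytosolic Hsp70 and lies at chr17:34956436-34959238 on the minus strand, had the largest rise of the called chaperone genes. In CA1 its normalized count was 44.6, 59.8 and 66.5 in the untrained libraries and 108, 94.0 and 85.4 in the trained ones. In CA3 it was 72.2 and 66.8 without and 115, 102 and 99.6 with training. In DG it was 76.8 and 90.9 without and 123, 102 and 119 with training. Every trained library lay above every untrained library of its own subregion, and Hspa1b was the only chaperone gene tested of which this was so in all 3 subregions. In single subregions this held for 12.9% (CA1), 17.2% (CA3) and 17.5% (DG) of all genes tested. The share of all genes with it in all 3 was not counted. Over all subregions Hspa1b rose 1.52-fold (log2 fold change 0.60, SE 0.10, adjusted p = 0.000625), and in CA1 alone 1.67-fold (log2 fold change 0.74, SE 0.19, adjusted p = 0.0257). Its change passed the test in neither CA3 (log2 fold change 0.59, SE 0.14, adjusted p = 0.088) nor DG (log2 fold change 0.44, SE 0.17, adjusted p = 0.168), and the training effects of the subregions were not shown to differ. Hspa1b remained called over all subregions in each of 6 fits that left out 1 animal. Its CA1 call was lost without trained replicate 1 (adjusted p = 0.112, limma), trained replicate 2 (0.0873), untrained replicate 1 (0.14) or untrained replicate 2 (0.0544).

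Hspa1a, the neighbouring near-copy at chr17:34969190-34972156 on the minus strand, could take reads from Hspa1b, since 65.4% of the 31-base words of its transcripts occur in transcripts of other genes and 68% of those of Hspa1b do. In CA1 Hspa1a was 73.1, 62.7 and 88.9 in untrained and 103, 77.9 and 55.3 in trained libraries, which overlap. In CA3 it was 72.7 and 66.0 without and 105, 106 and 97.0 with training, with no overlap, and in DG 38.9 and 86.1 without and 124, 90.7 and 80.7 with training, again overlapping. Hspa1a alone passed the test in no comparison, with an adjusted p of 0.116 over all subregions. The sum of both genes, which does not depend on how reads were shared between them, rose over all subregions (log2 fold change 0.50, SE 0.096, adjusted p = 0.00195 in limma) and in CA3 (0.58, SE 0.11, adjusted p = 0.0456). It passed the test neither in CA1 (0.39, SE 0.15, adjusted p = 0.171) nor in DG (0.56, SE 0.18, adjusted p = 0.0922). In CA3 all 5 choroid plexus markers had estimates below 0 with training and 2 of them, Ttr and Clic6, fell, the summed level of the 5 being 814 to 1115 in untrained and 236 to 319 in trained libraries; their part in the CA3 values was not tested. In CA1 the sum was 118, 123 and 155 in untrained and 211, 172 and 141 in trained libraries, which overlap, so there the call of Hspa1b was not shared by both copies together.

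**Figure D2:**
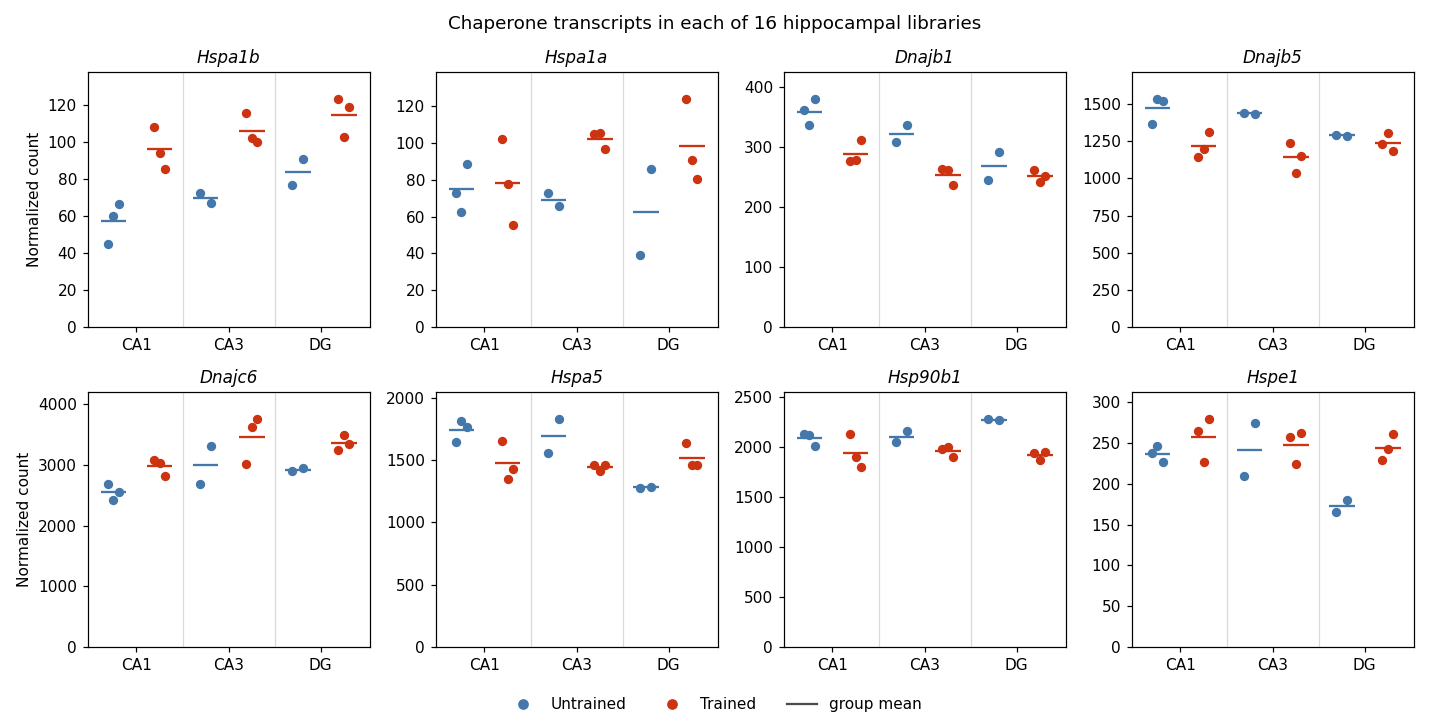
Normalized count (vertical axes, from 0) of 8 chaperone genes in each of the 16 libraries, by subregion and training, with a line at each group mean. Trained libraries of Hspa1b lie above the untrained ones of the same subregion throughout, those of Dnajb1 and Dnajb5 lie below them in CA1 and CA3, and Hspa5 lies lower with training in CA3 and higher in DG.

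The J protein genes Dnajb1 and Dnajb5 moved the other way. Dnajb1 encodes the main heat-inducible partner of cytosolic Hsp70. Its normalized count in CA1 was 361, 336 and 379 in untrained and 277, 278 and 311 in trained libraries, and in CA3 307 and 336 without and 262, 261 and 236 with training. In DG it was 245 and 291 without and 261, 241 and 251 with training. The groups did not overlap in CA1 and CA3 and overlapped in DG. Dnajb1 fell over all subregions (log2 fold change -0.25, SE 0.06, adjusted p = 0.00874), and was past the threshold in no subregion alone (adjusted p = 0.0595 for CA1, 0.135 for CA3 and 0.729 for DG in limma). Over all subregions its call was lost without trained animal 2 (adjusted p = 0.0606, limma).

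Dnajb5, a related class B J protein, fell over all subregions (log2 fold change -0.22, SE 0.05, adjusted p = 0.00537) and in CA1 (log2 fold change -0.27, SE 0.066, adjusted p = 0.0196). In CA1 the untrained libraries held 1367, 1533 and 1518 and the trained ones 1147, 1199 and 1314. In CA3 the values were 1439 and 1435 without and 1239, 1039 and 1153 with training (log2 fold change -0.33, SE 0.087, adjusted p = 0.104). In DG they were 1290.5 and 1288 without and 1229.7, 1307 and 1185 with training (log2 fold change -0.056, SE 0.071, adjusted p = 0.719). Trained libraries were all lower in CA1 and CA3, while 1 of the trained DG libraries exceeded both untrained ones. Like Hspa1b, it was called over all subregions whichever animal was left out. In CA1 the call of Dnajb5 was lost without trained replicate 1 (adjusted p = 0.0939, limma), trained replicate 2 (0.0878) or untrained replicate 2 (0.0853). In CA1 the summed level of 8 immediate early genes was also lower with training, 3532 to 3947 against 4479 to 7108, and its part in these falls was not tested.

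The other heat-inducible genes did not pass the test of training over all subregions. Of 12 such genes, chosen with earlier results of these data known, Hspa1b rose and Dnajb1 fell, beside 10.3% of all genes called in either direction, and the median log2 fold change of the 12 was 0.038 against -0.0091 for all genes tested. Hsph1, encoding the Hsp110 nucleotide exchange factor, had a log2 fold change of 0.015 with an SE of 0.044. Dnaja1 had 0.054 (SE 0.046), Dnajb4 -0.078 (SE 0.043), and the Hsp110 relatives Hspa4 and Hspa4l 0.079 (SE 0.038) and 0.083 (SE 0.054). Among the abundant cytosolic chaperones, Hsp90ab1 differed by 0.008 (SE 0.037), Hsp90aa1 by 0.083 (SE 0.049) and Hspa8 by -0.041 (SE 0.048) on the log2 scale. These estimates are small beside the rise of Hspa1b, and a missed threshold does not show equal levels.

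Of 4 clathrin and synaptic vesicle chaperone genes, 1 was called over all subregions, beside 10.3% of all genes tested. Dnajc6 encodes auxilin, which brings Hspa8 to clathrin coats, and lies at chr4:101496648-101642799 on the plus strand. In CA1 it was 2684, 2421 and 2551 in untrained and 3088, 3027 and 2815 in trained libraries. In CA3 it was 2683 and 3309.7 without and 3009, 3627 and 3752 with training. In DG Dnajc6 was 2900.3 and 2949 without and 3238, 3494 and 3339.5 with training. Trained libraries were all higher in CA1 and DG, and in CA3 untrained replicate 2 lay within the trained range. Dnajc6 rose over all subregions (log2 fold change 0.21, SE 0.048, adjusted p = 0.00632) and in CA1 (log2 fold change 0.22, SE 0.054, adjusted p = 0.0196). In CA3 the estimate was alike but wider (log2 fold change 0.21, SE 0.12, adjusted p = 0.428), and in DG it missed the threshold (log2 fold change 0.20, SE 0.06, adjusted p = 0.0771). Its partner Hspa8 had a log2 fold change of -0.12 in CA1, one of -0.13 in CA3 and another of 0.14 in DG, none past the threshold, and Dnajc5 had -0.0062, 0.056 and 0.12 in the same order. Leaving out trained animal 2 (adjusted p = 0.0711, limma) or untrained animal 1 (0.0774) lost the call of Dnajc6 over all subregions. Its CA1 call was lost without trained replicate 1 (adjusted p = 0.0885, limma), trained replicate 2 (0.0997) or untrained replicate 2 (0.0943). Over all subregions Hspa12a had 0.088 (SE 0.05) and did not pass the test. Part of the Hspa8 signal is uncertain, as 43.5% of its 31-base words occur in transcripts of other genes.

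Of 9 chaperone genes of the endoplasmic reticulum, 1 rose (Dnajc10) and 1 fell (Hsp90b1) over all subregions, beside 10.3% of all genes called in either direction. Estimates were below 0 for 7 of the 9 over all subregions (median log2 fold change -0.088), for 7 in CA1 (median -0.13), for 6 in CA3 (median -0.055) and for 4 in DG (median 0.0026). Over all genes tested they were below 0 for 7656 of 14673 over all subregions (median -0.0091), 6786 of 13588 in CA1 (median 0.0003), 7076 of 13848 in CA3 (median -0.0058) and 6952 of 13935 in DG (median 0.0008). Hspa5 encodes BiP, the Hsp70 of this compartment. In CA1 its normalized count was 1642, 1809 and 1761 in untrained and 1655, 1346 and 1424 in trained libraries. In DG it was 1277 and 1286 without and 1635, 1462 and 1460.1 with training. Trained libraries were mostly lower in CA1, where trained replicate 1 lay within the untrained range, and all higher in DG. With the main settings the change missed the threshold within each subregion, with log2 fold changes of -0.24 in CA1 (adjusted p = 0.0541, limma) and 0.24 in DG (adjusted p = 0.0736). Those 2 effects differed from each other by -0.48 on the log2 scale (SE 0.11, adjusted p = 0.0218), which was past the threshold. This call was kept without trained animal 1 or untrained animal 2 and lost without any 1 of the other 4, with adjusted p in limma from 0.0616 without trained animal 3 to 0.105 without trained animal 2, while the difference stayed between -0.52 and -0.45. Hspa5 was the only one of 62 chaperone genes called in this test, beside 2.75% of all genes. The split in genes at 0 runs the opposite way with training in CA1 and DG, so that it and this difference cannot be told apart. In CA3, where Hspa5 was 1559 and 1826 without and 1458, 1410.0 and 1458 with training, the log2 fold change was -0.23, and its difference from DG (-0.47, SE 0.12) gave an adjusted p of 0.111.

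Hsp90b1, encoding the endoplasmic reticulum Hsp90 (GRP94), has the same kind of element upstream as Hspa5. In DG it was 2281 and 2271 in untrained and 1942, 1868 and 1955 in trained libraries, with no overlap. It fell in DG (log2 fold change -0.24, SE 0.063, adjusted p = 0.0434) and over all subregions (log2 fold change -0.15, SE 0.04, adjusted p = 0.0211), a call lost in 4 of 6 fits that left out 1 animal (adjusted p = 0.0711 to 0.115), and its estimates were -0.10 in CA1 and -0.10 in CA3, neither past the threshold. The estimates of Hsp90b1 and Hspa5 thus had the same sign in CA1 and CA3 and opposite signs in DG, and the 2 genes were not tested against each other. In DG its adjusted p in limma was 0.0646 without untrained replicate 1 and 0.129 to 0.161 without a trained replicate. Hspa13, a microsomal Hsp70 relative, was 502, 446 and 455 in untrained and 381, 358 and 380.3 in trained CA1 libraries and fell there (log2 fold change -0.32, SE 0.084, adjusted p = 0.0294). Its call was lost without trained replicate 1 (adjusted p = 0.0607), trained replicate 2 (0.122) or untrained replicate 1 (0.172), again by limma. In DG Hspa13 was 351 and 384 without and 448, 378 and 433 with training, with overlapping groups, and the test of CA1 against DG for this effect missed the threshold (-0.51, SE 0.15, adjusted p = 0.0591 in limma). Dnajc10, a J protein with disulfide reductase activity, rose over all subregions (log2 fold change 0.21, SE 0.059, adjusted p = 0.026), with 490.3, 409.9 and 407 in untrained and 510.4, 519 and 566 in trained CA1. In CA3, where the groups overlap, Dnajc10 was 512 and 528 without and 487, 612 and 539.7 with training, and in DG 425 and 511 without and 572, 545 and 544 with training. Its call was lost without trained animal 2 (adjusted p = 0.128, limma), trained animal 3 (0.0752), untrained animal 1 (0.0958) or untrained animal 2 (0.0592). The remaining genes of this compartment, Dnajb9, Dnajb11, Dnajc1, Dnajc3 and Dnajc25, passed no test of training, with log2 fold changes over all subregions from -0.41 for Dnajc25 to 0.028 for Dnajb11.

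**Figure D3:**
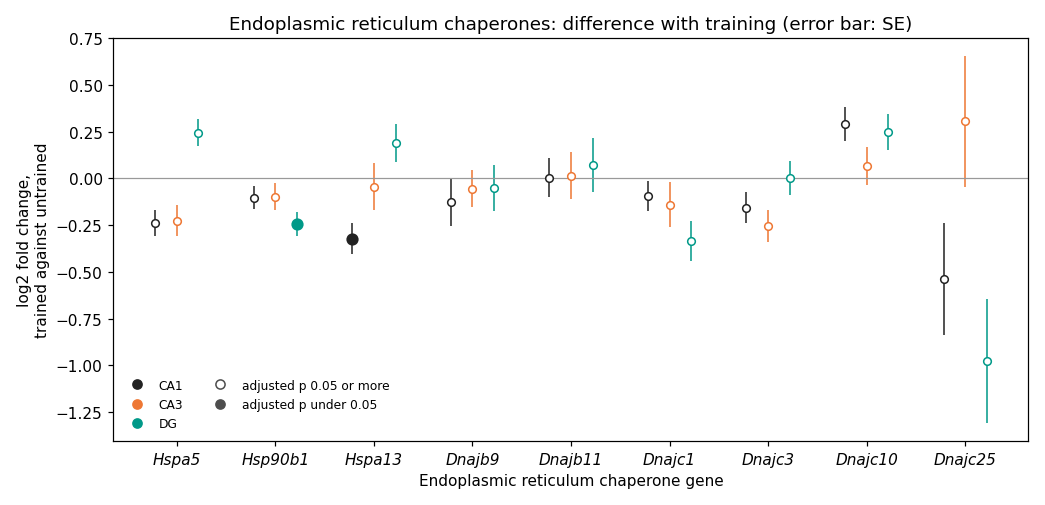
Log2 fold change of trained against untrained (vertical axis) for 9 endoplasmic reticulum chaperone genes in CA1, CA3 and DG, with the standard error as bar; filled points have an adjusted p under 0.05. Hspa5 lies at -0.24 in CA1 and 0.24 in DG, Hsp90b1 is below 0 in all 3 subregions, and Dnajc25, the least abundant, has the widest errors.

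Of 7 mitochondrial chaperone genes tested in DG, only Hspe1 was called, beside 3.39% of all genes. It encodes the Hsp10 lid of the chaperonin, whose barrel is the product of Hspd1. Hspe1 was 166 and 180.3 in untrained and 229, 242 and 261 in trained DG libraries, and rose 1.40-fold (log2 fold change 0.49, SE 0.12, adjusted p = 0.0412). With untrained replicate 1 left out its adjusted p in limma was 0.082, and with a trained replicate left out 0.117 to 0.184. In CA1 it was 238, 247 and 227 without and 265, 227 and 279 with training, with overlap (log2 fold change 0.11, SE 0.11, adjusted p = 0.631), and in CA3 209 and 274 without and 257, 225 and 262 with training, also with overlap (log2 fold change 0.047, SE 0.13, adjusted p = 0.894). The 2 untrained DG libraries were the lowest of all 16. Hspd1, which shares the upstream region shown above, was 953 and 1247 in untrained and 1069, 993 and 1025 in trained DG libraries (log2 fold change -0.083, SE 0.10, adjusted p = 0.692). The 2 genes therefore had estimates of opposite sign in DG, although 50.1% of the words of Hspd1 and 24.8% of those of Hspe1 also occur in transcripts of other genes. Hspa9, the matrix Hsp70, had a log2 fold change of 0.042 in DG and 0.016 over all subregions. Endothelial markers moved with training in DG, their summed level being 658 to 847 in untrained and 442 to 495 in trained libraries, and Flt1 fell (-0.94 on the log2 scale). The granule cell marker Prox1 fell in DG as well (-0.31), where the summed granule cell markers given above did not overlap between the groups. The part of either marker list in the DG results was not tested.

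The remaining called genes were J proteins outside these groups. Dnajc13, an endosomal J protein that works with Hspa8 in receptor sorting, fell over all subregions (log2 fold change -0.15, SE 0.043, adjusted p = 0.0286). It was 926, 821 and 871 in untrained and 722, 755 and 754 in trained CA1. In CA3 it was 791 and 794 without and 686, 770.4 and 740.0 with training, and in DG 764 and 830.3 without and 753, 743 and 763 with training. Trained libraries were below untrained ones in every subregion, in DG by a narrow margin (763 against 764), which held for no other chaperone gene tested. In single subregions it held for 11.1% (CA1), 16.7% (CA3) and 18.2% (DG) of all genes tested. The share of all genes with it in every subregion at once was not counted. The call of Dnajc13 was nevertheless lost in all 6 fits that left out 1 animal, with adjusted p in limma from 0.0546 to 0.123. Dnaja2, a cytosolic class A partner of Hsp70, rose over all subregions (log2 fold change 0.14, SE 0.044, adjusted p = 0.0468), with 972 and 1084 in untrained and 1153, 1165 and 1119.6 in trained CA3. In CA1 the groups overlapped, at 1102, 1118 and 1007 without and 1072, 1133 and 1206 with training, and in DG they were 992 and 1168 without and 1227, 1213 and 1243 with training. Without untrained animal 1 the log2 fold change of Dnaja2 was 0.086 (adjusted p = 0.345, limma), and it was also not called without any 1 of the trained animals (0.0697 to 0.15). Dnajb2 and Dnajb6, which restrain protein aggregation, missed the threshold with log2 fold changes of 0.17 and 0.10.

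Taken by subregion, CA1 held the most calls. In CA1 4 of 61 chaperone genes tested were called, beside 5.23% of all genes tested. Dnajc6 and Hspa1b rose there and Dnajb5 and Hspa13 fell. Subregion markers moved in the same libraries: all 4 CA1 markers had estimates below 0 (median log2 fold change -0.945), with Fibcd1 called (-1.32), and of 4 CA3 markers Grik4 (0.56) and Cpne4 (0.37) rose and Coch (-1.50) fell. Among the 8 immediate early genes Fos (-0.74) and Egr1 (-0.96) fell, as did the astrocyte marker Aqp4 (-0.35) and the meningeal marker Dcn (-1.20). The part of these markers in the 4 chaperone calls was not tested. In DG 2 of 59 were called, beside 3.39% of all genes. Hspe1 rose there and Hsp90b1 fell. In CA1 all trained and no untrained libraries had many genes at 0, and in DG the reverse held. This split and the training calls in CA1 and DG therefore cannot be told apart. In CA3 limma called 0 of 60, beside 0.852% of all genes, and 7 had an unadjusted p under 0.05, beside 15.8% of all genes. Those 7 were Hspa1b, Hspa1a, Dnajb5, Dnajb1, Dnajc3, Hspa5 and Dnaja4. The shares called among chaperone genes were close to those of all genes in CA1 and DG, and the chaperone medians lay at -0.0019 in CA1, 0.014 in CA3 and 0.025 in DG on the log2 scale, against 0.0003, -0.0058 and 0.0008 for all genes tested. With the sex-linked covariate limma called 0 in each subregion, with 2, 11 and 3 genes at an unadjusted p under 0.05 in CA1, CA3 and DG. In CA1 leaving out trained replicate 2 left 0 called (13 unadjusted), leaving out trained replicate 1 lost all 4 calls and gained Hspa5, and leaving out untrained replicate 2 left only Hspa13. In DG leaving out any 1 trained replicate left 0 (9 to 12 unadjusted), leaving out untrained replicate 1 lost both calls and gained Dnajc2, and leaving out untrained replicate 3 gave 8, beside 11.4% of all genes in that fit. In those last 2 fits the lone untrained library was assumed to vary like the trained ones.

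Counting only whether groups overlapped, 7 chaperone genes had all trained CA1 libraries above all untrained ones and 9 had them below, beside 12.9% and 11.1% of all genes tested. In CA3 the counts were 5 and 9, beside 17.2% and 16.7%. In DG they were 11 and 11, beside 17.5% and 18.2%. Expressed as shares of the genes tested these were near the background, apart from fewer higher genes in CA3 (8.33% of 60). No interaction other than that of Hspa5 was called: the test of CA1 against CA3 and that of CA3 against DG each called 0 of 62 in limma (0 and 7 at an unadjusted p under 0.05, beside 6.71% and 11.7% of all genes), beside 0.0273% and 0.164% of all genes.

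**Figure D4:**
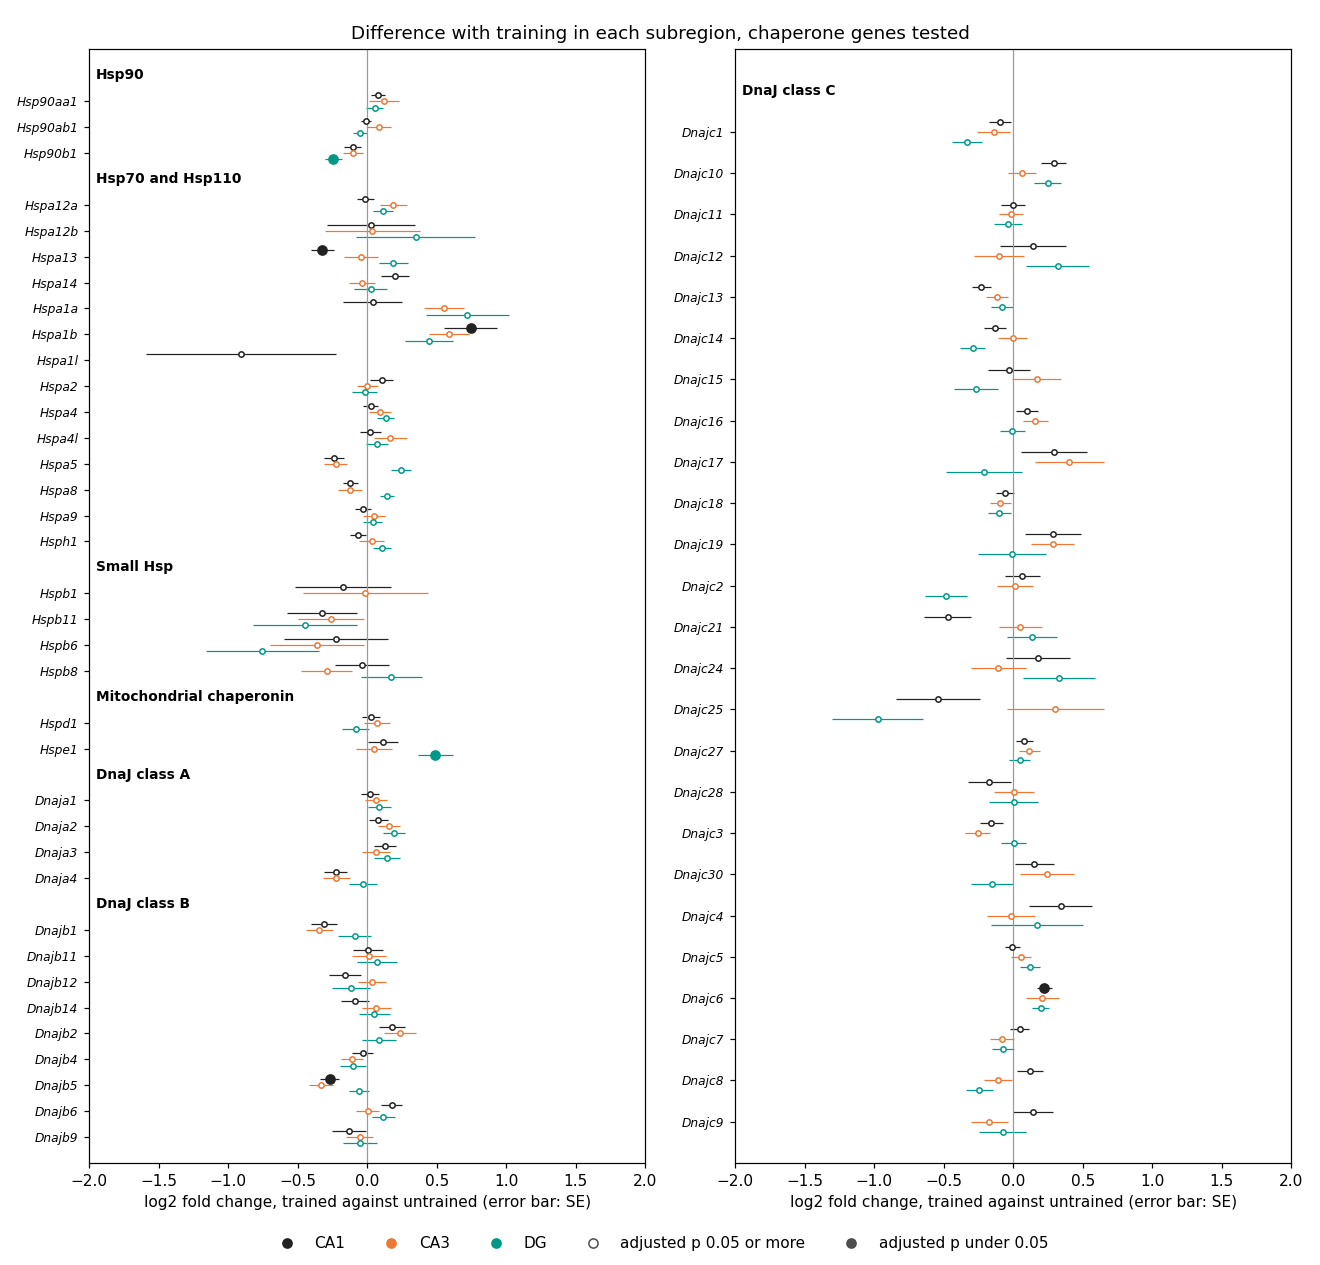
Log2 fold change of trained against untrained (horizontal axes) with standard error for the 61 chaperone genes tested in at least 1 subregion, by family, in CA1, CA3 and DG; filled points have an adjusted p under 0.05. Filled points are Dnajb5, Dnajc6, Hspa1b and Hspa13 in CA1 and Hspe1 and Hsp90b1 in DG, and none in CA3.

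Between subregions, with training as a term, chaperone levels differed little. CA1 against DG had 3 called genes of 62, beside 1.95% of all genes. Hspb1, the small heat shock protein Hsp27 (Hsp25 in mouse), was 28.3, 22.4 and 12.9 in untrained CA1, 17.3, 17.5 and 18.4 in trained CA1, 0 and 13.3 in untrained DG and 3.90, 3.31 and 8.05 in trained DG. Untrained DG replicate 3 exceeded the lowest CA1 library, and the other DG libraries lay below all of CA1. Hspb1 was higher in CA1 (log2 fold change 1.74, SE 0.39, adjusted p = 0.0217), at low counts. Dnajb1 was also higher in CA1 (log2 fold change 0.29, SE 0.073, adjusted p = 0.0342), with the values given above overlapping. Hspa2, an Hsp70 with a known role in male germ cells, was lower in CA1 (log2 fold change -0.22, SE 0.059, adjusted p = 0.0496), at 580.1, 615 and 634 in untrained CA1 and 676, 706 and 589 in trained CA1. In DG it was 701 and 791 without and 678, 790.0 and 742 with training, overlapping the CA1 range. With the animal as labelled as a fixed block, 1 gene was called (untrained replicate 1 enters as 1 animal there and in the fits that leave out animals, against its sex-linked transcripts): Hspb1 kept its call (adjusted p = 0.0423 in limma) and Dnajb1 (0.0623) and Hspa2 (0.066) lost theirs. With any 1 animal left out, at most 1 was called. Hspb1 lost its call without trained animal 1 (adjusted p = 0.0772, limma), trained animal 2 (0.112), untrained animal 1 (0.0831) or untrained animal 2 (0.059). In CA1 against DG all 5 endothelial (median log2 fold change 0.595), all 5 choroid plexus (0.605) and all 5 oligodendrocyte markers (0.104) lay above 0. Of 5 microglial markers 4 lay below 0. None of these markers was called, and their part was not tested.

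Next in order of adjusted p in this pair, higher in CA1 without passing the test, were Hspa12b (0.66), Hspe1 (0.23) and Dnajc3 (0.15). Lower in CA1, also without passing, were Hspa1b (-0.39, adjusted p = 0.0825 in limma), Dnajc6 (-0.18), Dnajb12 (-0.19) and Hspd1 (-0.14). CA1 against CA3 called 0 of 62 in limma (4 at an unadjusted p under 0.05, beside 8.72% of all genes), beside 0.211% of all genes. There Dnajc6 (-0.22, adjusted p = 0.113), Hspa2, Hsp90aa1, Dnajc10 and Hspa1b had the smallest p among estimates below 0, and Dnajb1 (0.18), Hspb1, Dnajc13, Dnaja3 and Dnajb5 among those above 0. CA3 against DG called 0 of 62 in limma (4 at an unadjusted p under 0.05, beside 4.87% of all genes) and 0% of all genes. The estimates with the smallest p there were 0.60 for Hspa12b, 0.93 for Hspb1, 0.20 for Hspe1, 0.11 for Dnajc3 and 0.11 for Dnajb1 on the CA3 side. On the DG side they were -0.11 for Hspa9, -0.14 for Dnajb14, -0.20 for Dnajc30, -0.087 for Dnaja2 and -0.07 for Hsp90ab1.

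Other genes of the chaperone pathway, 75 regulators, co-chaperones, cytosolic chaperonin subunits and unfolded protein response genes chosen with earlier results of these data known, showed a like mixture. Over all subregions 73 were tested, 5 rose and 5 fell, beside 10.3% of all genes called in either direction. Among those that rose were the Hsp90-binding phosphatase Ppp5c (log2 fold change 0.24, SE 0.054, adjusted p = 0.00675), the immunophilin-type co-chaperone Fkbp8 (0.29), Bag6 (0.13) and the chaperonin subunit Cct8 (0.15). Those that fell were Xbp1 (log2 fold change -0.31, SE 0.053, adjusted p = 0.000937), a transcription factor of the unfolded protein response, and the Hsp90 co-chaperones Fnip2 (-0.29), Ahsa2 (-0.25), Chordc1 (-0.19) and Stip1 (-0.13), the last of which links Hsp70 to Hsp90. Hsf1, the heat shock factor, did not pass the test (log2 fold change -0.079, SE 0.068, adjusted p = 0.5).

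By subregion, Ppp5c rose in CA1, from 441, 456 and 457 in untrained to 542, 558 and 632 in trained libraries, and Xbp1 fell there, from 458, 462 and 457 to 384, 360.2 and 323. In DG Cct8 rose, from 783 and 911 to 1044, 1062 and 1029, and in CA3 limma called 0 of 73 (15 at an unadjusted p under 0.05), beside 0.852% of all genes called and 15.8% at that unadjusted p. Pdia6, a disulfide isomerase of the endoplasmic reticulum, was the pathway gene whose training effect differed between CA1 and DG (-0.41 on the log2 scale, SE 0.11, adjusted p = 0.0391), beside 2.75% of all genes called. As for Hspa5, this difference and the split in genes at 0 cannot be told apart. In CA1 it was 638, 641 and 583 without and 591, 573 and 578 with training, and in DG 514 and 488 without and 589, 651 and 634 with training. The signs of its estimates in CA1 and DG were those of Hspa5, although within CA1 (adjusted p = 0.531) and DG (0.0559) it was not called by limma.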

How the data were processed

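RNA was taken from subregions microdissected from dorsal hippocampal slices. The labels give the molecule as polyA RNA, while the extraction protocol names an rRNA depletion kit. The authors demultiplexed with bcl2fastq 2.20, trimmed with Trim Galore, aligned to GRCm38 with STAR and, by the study's methods, quantified with Salmon. The deposited signal values are estimated counts per gene that the authors had normalized between libraries, so read depth is unknown and no count model was used. Genes with a value of at least 10 in as many libraries as the smallest group (2 or more) were kept. limma 3.58.1 in R 4.3.3, with trend and robust estimation, was run on log2(value + 2) and p-values were adjusted over all genes tested by the Benjamini-Hochberg method. The model was first tested on simulated data.

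Combined and subregion comparisons used all 16 libraries with subregion and training as terms, each subregion was also fitted alone, and differences in training effect were contrasts of 6 groups. The labels do not state separate cultures or litters beyond the animal, and libraries of 1 animal enter as separate samples. Libraries of the same animal are paired by their labels across subregions, yet did not deviate together (14 pairs, correlation -0.108 to 0.092). The sex-linked transcripts of untrained replicate 1 go against its label as 1 animal, so this does not show that libraries of 1 animal are independent. The 72 genes, the lists and the named genes were chosen with earlier results of these data known. Named were a fixed set of 27 chaperones, every gene called in a comparison of training, the 5 on either side of each subregion pair with the smallest p, and the 10 highest per kilobase. The sum of Hspa1a and Hspa1b, the coding transcript length and a term for many genes at 0 in CA3 were added after the data were seen. The values of 1 gene of the wider pathway list are not reported here. Lengths came from GENCODE transcripts (GRCm38) and promoters from RefSeq. Tables and plots used python 3.11.15, pandas 2.3.3, numpy 2.4.6 and matplotlib 3.10.9.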

Additional observations from a re-analysis of the deposited data

Results flagged for a closer look

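Hspa5 was singled out because its difference with training was not the same in CA1 and DG: the CA1 effect less the DG effect was -0.48 on the log2 scale (SE 0.11, adjusted p = 0.0218, limma).

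Pdia6 was singled out on the same ground, with a CA1 effect less DG effect of -0.41 on the log2 scale (SE 0.11, adjusted p = 0.0391, limma). Groups held 2 or 3 libraries, so no search for single outlying libraries was made.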

How the results depend on the processing

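Counts of called chaperone genes depended on several settings, and the share of all genes called moved as well. For trained against untrained over all subregions (8) the sex-linked covariate gave 0, and leaving out 1 animal gave 2 (without trained 2, with 3.80% of all genes called) to 9 (12.8%), with 3 (3.15%) without untrained 1 and 5 (8.09%) without trained 3. In CA1 (4) no low-value filter gave 7 (8.24% of all genes), upper-quartile rescaling 7 (5.44%), array weights 8 (8.46%), the replicate block 2 (4.11%), the sex-linked covariate 0 and leaving out 1 animal 0 to 6. All 16 libraries in one fit also gave 4, but with Dnajc13 and Hspb7 in place of Dnajc6 (adjusted p = 0.0979, limma) and Hspa13 (0.0551). Hspa5 was called in CA1 with upper-quartile rescaling, array weights, and filters asking for 10 in every library or a mean of 50, and not with the main settings. In CA3 (0) array weights gave 3 (7.39%), the replicate block 5 (8.38%), all 16 libraries in one fit 1 (2.81%) and leaving out 1 animal 0 to 1. In DG (2) upper-quartile rescaling gave 1; no robust estimation, array weights, the replicate block and the sex-linked covariate each gave 0; and leaving out 1 animal gave 0 to 8 (0.203% to 11.4%). For CA1 against CA3 (0) array weights gave 1 and leaving out 1 animal 0 to 1. For CA1 against DG (3) no low-value filter, array weights and the animal as a fixed replicate block each gave 1, leaving out 1 animal gave 0 to 1, and leaving out only untrained CA3 replicate 1 gave 2. For the difference in training effect between CA1 and DG (1) no low-value filter gave 6 (8.68%), upper-quartile rescaling 2, array weights 2 and leaving out 1 animal 0 to 2, and between CA3 and DG (0) array weights gave 1. The causes were not tested.

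Trained and untrained animals share replicate numbers only. Same-numbered libraries of the 2 groups correlated between -0.18 and 0.119 (7 pairs), which gives no sign of pairing. The replicate block therefore rests on neither the labels nor the values. Over all subregions it left 7 called. The block with CA3 called Dnajb5, Hspa1a, Hspa1b, Hspa5 and Hspa8.

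Of 320 values of single called genes under alternatives, 219 kept direction and call, 100 kept direction and lost the call, and 1 reversed: Hspa13 in CA1 under the sex-linked covariate, at 0.14 (SE 0.48). Rescaling moved the median of all genes by at most 0.031 on the log2 scale. Upper-quartile rescaling changed the share of higher calls among all genes in CA1 from 67.5% to 56.8%, and for the training effects of CA1 against CA3 from 25% to 14.3% and of CA3 against DG from 70.8% to 50%. Depth is unknown, and small groups and estimated, already normalized counts limit what low genes can show.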
